A study of Mus musculus with 6 samples.

Results

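Carbonic anhydrases are zinc enzymes that turn carbon dioxide and water into bicarbonate and a proton, and back. The 10 carbonic anhydrase genes described here are Car1, Car2, Car3, Car4, Car5b, Car6, Car7, Car9, Car12 and Car13, found by symbol among the 55487 genes of the deposited table. They were chosen by gene family with their normalized counts in these same libraries known, so those levels are given as a description, with no test. RNA-seq was performed on 6 bone marrow samples from mice carrying MLL-AF9 leukemia, an acute myeloid leukemia driven by a fusion of the MLL gene. The donor leukemia cells, on a C57BL/6 background with the CD45.2+ marker, carried Mx1-Cre and Brd9 fl/fl alleles and a GFP reporter from the MLL-AF9 vector. They were given at 1000 cells per mouse to irradiated CD45.1+ recipients, which were 6 weeks old per the study's methods. From the next day, recipients received 3 injections of PBS or of pIpC at 20 mg/kg, every other day. Marrow was taken on day 10 after injection. pIpC is a double-stranded RNA mimic that raises interferon and, through the interferon-responsive Mx1 promoter, Cre in the cells that carry the transgene, here the donor cells. PBS and pIpC samples share the Cre and the floxed alleles, so effects of pIpC itself and of a Brd9 deletion cannot be told apart. The labels state GFP+ marrow cells, whereas the study's methods state c-Kit+ cells. Nothing in the labels says whether the 3 samples of a group came from separate mice, so p-values measure the spread between these samples only.

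The members differ in where the enzyme sits. Car1, Car2, Car3, Car7 and Car13 are cytosolic, Car5b is mitochondrial, Car4, Car9 and Car12 face the outside of the cell from its membrane, and Car6 is secreted. In marrow, Car1 and Car2 are known as red cell enzymes that work beside the bicarbonate exchanger Slc4a1 (band 3), and Car2 also acidifies the space under osteoclasts. Car9 and Car12 are known as cell surface enzymes of hypoxic tumors, where Car9 is a classical target of the hypoxia-inducible factor HIF.

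Brd9, the targeted gene, was not lower in the libraries labelled pIpC. PBS replicates 1 to 3 had normalized counts (reads on the gene divided by 1 size factor per library) of 1927, 1946 and 1632 and pIpC replicates 1 to 3 had 2036, 2263 and 2011, a log2 difference of 0.20 (standard error, SE, 0.13, from limma fitted across all genes, limma adjusted p = 0.259; exact two-sided permutation p = 0.1, the smallest that 3 against 3 libraries allow). These counts cover the whole gene, exons outside any deleted stretch included, so they do not show whether a stretch was deleted. For that reason, pIpC libraries below are the libraries labelled pIpC. Depth was 19277439 to 23586722 reads on genes, and PBS replicate 3 stood apart within its group, with a chi-square per gene of 216 against PBS replicate 1, where PBS replicates 1 and 2 gave 6.83. Ptprc, which encodes CD45, and Kit were present in all libraries, but Hoxa9 and Meis1, the defining targets of MLL-AF9, were at 5130 ± 195 and 3620 ± 424 in PBS libraries and at 256 ± 28.4 and 224 ± 16.7 in pIpC libraries (SD, n = 3). The libraries labelled pIpC also held more of other cell types' markers: 14 of 14 tested erythroid markers rose, with a summed normalized count of 44.1 to 61.1 in PBS libraries and 5439 to 7569 in pIpC libraries, and Slc4a1 and Rhag were among those at 0 in every PBS library. Other lists moved too: 9 of 9 megakaryocyte, 12 of 12 B cell and 12 of 12 neutrophil markers rose, the last from a sum of 20719 to 42427 to a sum of 2092161 to 2150771. In bulk RNA, more cells of a type and more RNA per cell cannot be told apart.

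Among the 10 members, Car1 and Car2 were close to 0 in PBS libraries and reached group means of 1127 and 2027 normalized counts in the libraries labelled pIpC, whereas Car9 and Car12 were lower there. Car3 was higher at a low level and Car13 differed little. These 6 passed the filter on low values, which asks for a mean of 10 normalized counts over all libraries, and the other 4 did not. Of the 6, the groups did not overlap in 5, with 3 higher and 2 lower in pIpC libraries. Over all 15020 tested genes, groups did not overlap in 56.8%, and 25.0% were called higher and 20.4% lower by limma at an adjusted p under 0.1. The members' values chose them, so nothing is read from their count against that background.

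**Figure D1:**
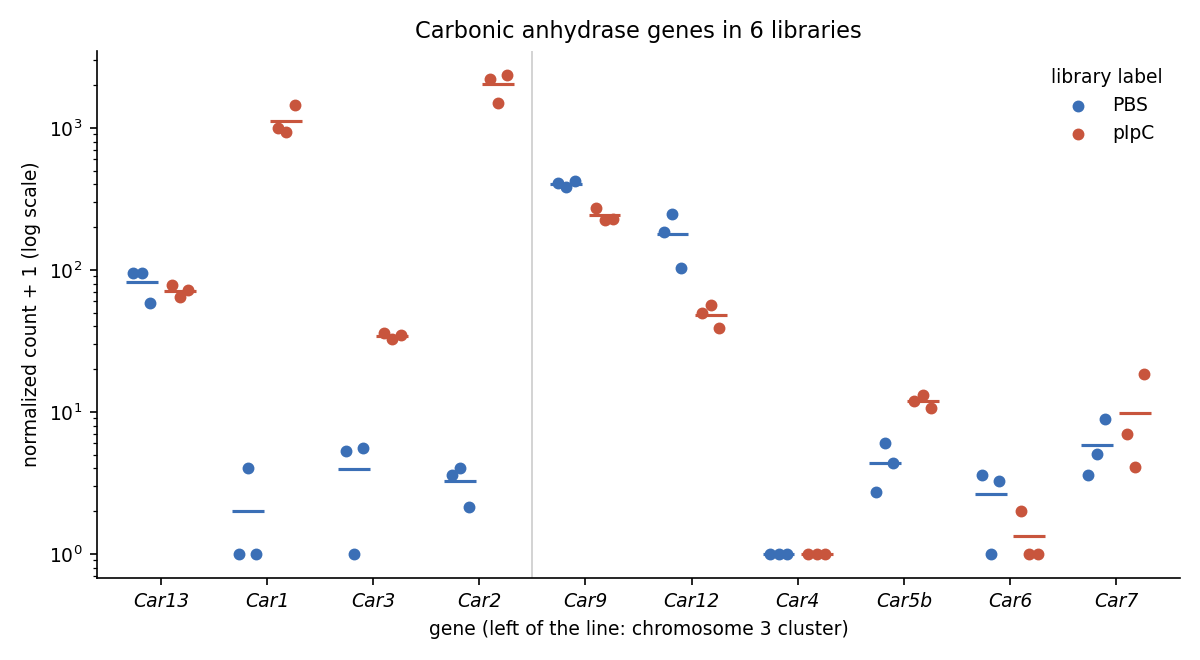
Normalized count + 1 on a log axis of the 10 carbonic anhydrase genes in each of the 3 PBS (blue) and 3 pIpC (red) libraries, 1 point per library, with a short line at each group mean and the chromosome 3 cluster left of the vertical line. Car1 and Car2 lie at 3.04 or less in PBS libraries and at 935 or more in pIpC libraries, Car9 and Car12 are lower in pIpC libraries, the groups overlap for Car13, and Car4 is at 0 counts throughout.

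Car1, Car2, Car3 and Car13 form a cluster on chromosome 3 of GRCm38, in the order Car13, Car1, Car3 and Car2 within 259044 bases from 14641727 to 14900770. Car1 (ENSMUSG00000027556, minus strand, 14766216 to 14808368) had normalized counts of 0, 3.04 and 0 in PBS replicates 1 to 3 and of 996, 935 and 1451 in pIpC replicates 1 to 3. That is 3 reads in all PBS libraries together, so the size of the difference is poorly bounded from above. The ratio of its summed reads, pIpC over PBS and scaled by the size factors, was 1142 (95% counting interval 391 to 5542). Like all such intervals here, this one covers counting error only. Car2 (ENSMUSG00000027562, plus strand, 14886273 to 14900770), the fast and widely used cytosolic isoform, had normalized counts of 2.60, 3.04 and 1.13 in PBS libraries and of 2202, 1508 and 2371 in pIpC libraries. Its ratio of reads was 880 (427 to 2190). Every pIpC library was far above every PBS library for both genes, and pIpC replicate 2 was the lowest of its group in both. It was also the lowest in the summed erythroid markers (7569, 5439 and 7235 in pIpC replicates 1 to 3) and in 11 of the 14 markers, but Slc4a1 was highest there. The log2 differences were 9.44 (SE 0.58) for Car1 and 9.31 (SE 0.33) for Car2 on the log2(normalized count + 1) scale. These understate low genes, and they ran from 6.67 to 11.8 for Car1 with a pseudocount of 10 or 0.1. Without PBS replicate 2, which held all PBS reads of Car1, its value was 10.1. The part of the erythroid markers in these values was not tested.

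**Figure D2:**
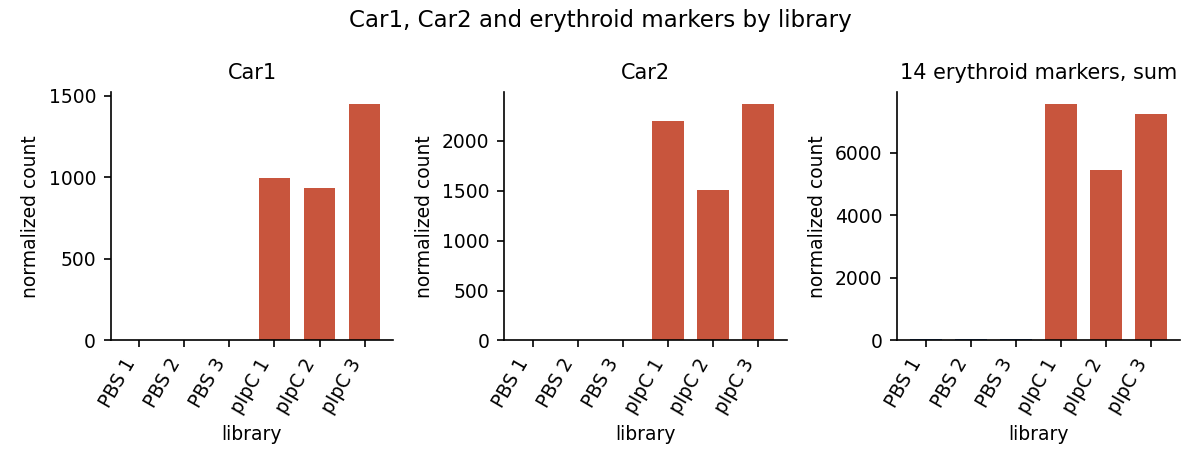
Normalized count of Car1, of Car2 and of the sum of 14 erythroid markers in each library, as bars from 0 in 3 panels with their own linear axes. The PBS bars are too low to see (a marker sum of 44.1 to 61.1), and pIpC replicate 2 has the lowest pIpC bar in all 3 panels.

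The other cluster genes differed less. Car3 (ENSMUSG00000027559, plus strand, 14863512 to 14872523), a slow isoform best known from muscle, fat and liver, had normalized counts of 4.33, 0 and 4.53 in PBS libraries and of 34.9, 31.7 and 33.8 in pIpC libraries. The groups did not overlap, and the ratio of reads was 11.3 (5.71 to 25.4). The log2 difference was 3.48 (SE 0.70), and 2.67 without PBS replicate 2, the library with no Car3 reads. Its pIpC values were close together, at 33.5 ± 1.66 (SD, n = 3). Car13 (ENSMUSG00000027555, plus strand, 14641727 to 14663002), a cytosolic isoform at the far end of the cluster from Car2, had normalized counts of 93.4, 94.1 and 57.7 in PBS libraries and of 76.9, 63.3 and 71.6 in pIpC libraries. PBS replicate 3 was the lowest of all 6 libraries, the groups overlapped, and the log2 difference was -0.18 (SE 0.27). Without PBS replicate 3 it was -0.41 and the groups no longer overlapped. Of the 4 cluster genes, Car13 was thus the only member whose groups overlapped.

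The genes beside the cluster were not used to choose the members and could be tested. Neighbours were the 5 nearest protein-coding genes on each side, 2 pseudogenes inside, and the antisense gene described below, over Car9 on chromosome 4. Of these 13, 9 were tested and 5 rose, all 5 on the Car2 side. Over all tested genes, 25.0% were called higher and 20.4% lower. On the Car13 side, Ralyl and Slc7a12 had no reads. The next 3 genes on that side did not pass: Lrrcc1, a centrosomal protein 69069 bases away, had a log2 difference of -0.04 (SE 0.15, limma adjusted p = 0.857), and passed with -0.17 without PBS replicate 3 (limma adjusted p = 0.0667). E2f5, a cell cycle transcription factor 35418 bases away, had -0.22 (SE 0.23, limma adjusted p = 0.496). 1810022K09Rik, 30442 bases away, had -0.65 (SE 0.35, limma adjusted p = 0.186; DESeq2 adjusted p = 0.0998). On the Car2 side, the nearest gene, Gm9733, lies 395781 bases away and had normalized counts of 18.2, 24.3 and 18.1 in PBS libraries and of 338, 307 and 276 in pIpC libraries (log2 difference 3.87, SE 0.22, limma adjusted p = 5.04e-05). Sirpb1a, Sirpb1b, Sirpb1c and Gm5150, of the SIRP family of immune receptors, rose by 4.68, 3.31, 2.80 and 1.61 on the log2 scale, with limma adjusted p = 0.0053, 0.00028, 0.00881 and 0.0177. Genes of a family may share reads, which was not examined here, so the split among them is uncertain. The pseudogene Gm5843 had no reads, and Gm16399, inside Car1, had reads in PBS replicate 3 only, at a normalized count of 2.26.

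**Figure D3:**
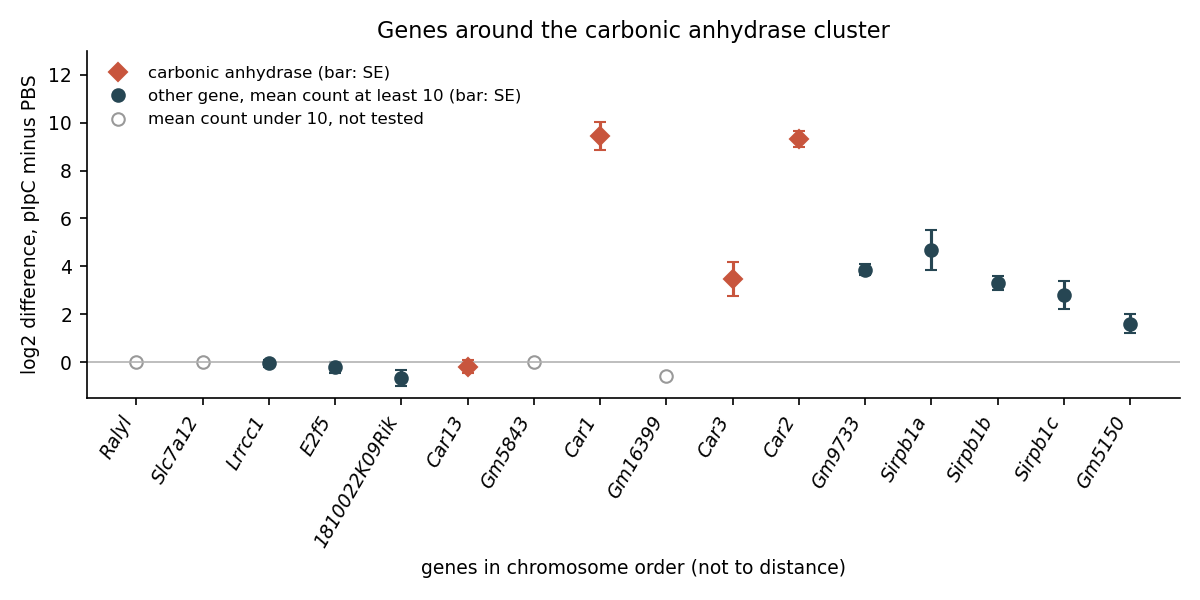
Log2 difference (libraries labelled pIpC minus PBS, on log2(normalized count + 1)) of the chromosome 3 cluster genes and their neighbours in their order along the chromosome, with bars of 1 SE and open circles for genes below the filter. Values are near 0 or below on the Car13 side, 9.44 for Car1 and 9.31 for Car2, and 1.61 to 4.68 for the genes beyond Car2.

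Per kilobase, Car9 was the most abundant member in PBS libraries, and it was lower in the libraries labelled pIpC. Car9 (ENSMUSG00000028463, chromosome 4, plus strand, 43506966 to 43513729) had normalized counts of 408, 381 and 424 in PBS libraries and of 271, 223 and 229 in pIpC libraries. All 3 pIpC libraries were below all 3 PBS libraries, at 59.5% of the PBS mean (404 ± 22.2 against 241 ± 25.9, SD, n = 3; log2 difference -0.75, SE 0.15). The antisense gene Gm12454 overlaps Car9, and since the labels state unstranded libraries, reads of the pair may not be told apart. Gm12454 had normalized counts of 160, 174 and 235 in PBS libraries and of 162, 168 and 132 in pIpC libraries, and its log2 difference of -0.29 (SE 0.22, limma adjusted p = 0.334) did not pass.

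Car12, the other surface enzyme, was also lower. Car12 (ENSMUSG00000032373, chromosome 9, plus strand, 66713686 to 66766845) had normalized counts of 185, 247 and 102 in PBS libraries and of 48.9, 55.2 and 37.7 in pIpC libraries. The groups did not overlap, although PBS replicate 3 was well below the other PBS libraries. The pIpC mean was 26.6% of the PBS mean (178 ± 72.8 against 47.3 ± 8.84, SD, n = 3), the log2 difference was -1.82 (SE 0.36), and leaving out single libraries gave -2.17 to -1.54. Car4 (ENSMUSG00000000805, chromosome 11, 84957786 to 84966044), which is anchored to the membrane by a lipid, had 0 reads in all 6 libraries, which allows up to 3 reads in each.

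The promoter windows of Car9 and Car12 are shown because Car9 is known as a HIF target. Each runs from 250 bases before to 50 bases after the start (RefSeq, GRCm38.p6, plus strand), chr4:43506776-43507075 for Car9 and chr9:66713436-66713735 for Car12, and capitals mark the HIF core motif, the letters ACGTG or GCGTG on either strand.
Car9: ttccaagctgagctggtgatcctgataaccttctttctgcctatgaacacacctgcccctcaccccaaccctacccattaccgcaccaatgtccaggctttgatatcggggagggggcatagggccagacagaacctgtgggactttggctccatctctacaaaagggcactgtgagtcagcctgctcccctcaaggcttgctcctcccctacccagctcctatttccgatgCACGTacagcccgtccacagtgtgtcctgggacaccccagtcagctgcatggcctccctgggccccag
Car12: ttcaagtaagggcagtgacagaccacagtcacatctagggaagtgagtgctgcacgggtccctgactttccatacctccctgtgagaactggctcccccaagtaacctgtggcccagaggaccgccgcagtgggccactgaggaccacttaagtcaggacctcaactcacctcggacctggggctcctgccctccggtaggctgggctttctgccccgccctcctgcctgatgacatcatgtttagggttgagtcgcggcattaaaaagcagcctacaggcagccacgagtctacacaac
The Car9 window held 1 match, at -18 from the RefSeq start and read on the minus strand, and the Car12 window held 0. For Car9 the RefSeq start lies after the gene start given above (43506966), so the match falls inside that gene range. Of 32851 promoter windows of this length, 43.8% held at least 1 match. Of the other members with a window, Car4 had 1 match, Car5b had 5, Car6 had 3, and the 3 windows of Car7 had 2, 0 and 1, with matches that overlap on opposite strands counted separately. At least 4 matches, as in Car5b, were found in 3.86% of windows. The GATA motif, AGATAA or TGATAA on either strand, was found in 18.6% of windows, among them Car9 with 1 match and 1 window of Car7. No promoter window was found for Car1, Car2, Car3 or Car13, so neither motif was looked for in these genes.

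The remaining members were at or near the limit of detection. Car5b (ENSMUSG00000031373, chromosome X, 163976822 to 164027997), the mitochondrial isoform, had 2, 5 and 3 reads in PBS libraries and 11, 12 and 10 in pIpC libraries. The groups did not overlap, and the ratio of reads was 3.31 (1.60 to 7.54), at a mean below the filter. Car7 (ENSMUSG00000031883, chromosome 8, 104534689 to 104550343), a cytosolic isoform known from neurons, had 3, 4 and 7 reads in PBS libraries and 6, 3 and 18 in pIpC libraries. These overlapped and pIpC replicate 3 held most of them (ratio of reads 1.94, 0.981 to 3.996). Without that library the mean normalized count was 4.86 in PBS and 4.53 in pIpC libraries. Car6 (ENSMUSG00000028972, chromosome 4, 150187015 to 150201332), the secreted enzyme of saliva, had 3, 0 and 2 reads in PBS libraries and 1, 0 and 0 in pIpC libraries, and a difference was not detectable at this depth (ratio 0.201, 0.00425 to 1.79).

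No other gene of the family reached a mean normalized count of 10. Car10 and Ptprz1 had no reads, and Car8 had 1 read in all. Car5a, Car11 and Ptprg had at most 6 reads in any library. Car14 had 7, 7 and 6 reads in PBS libraries and 6, 7 and 12 in pIpC libraries, and Car15 had 8, 4 and 7 against 10, 7 and 16, so both overlapped.

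Per kilobase of exon, surface enzymes led the family in PBS libraries and cytosolic enzymes led it in the libraries labelled pIpC. The normalized counts per kilobase of the 10 members summed to 240 ± 9.95 in PBS libraries and to 1897 ± 389 in pIpC libraries (SD, n = 3). In PBS libraries the order was Car9 (176 ± 9.62), then Car13 (35.6 ± 9.06) and Car12 (23.4 ± 9.59), with all other members at means of 1.33 or below. Per kilobase, Car13 was above Car12 in each PBS library, although their ranges over libraries overlapped. This order rests on the exon lengths, 2299 bases for Car13 and 7597 for Car12. Before division by length, Car12 was the higher in each PBS library. Car9 made up 67.6% to 80.5% of the summed level in PBS libraries, and Car1 with Car2 made up 0.204% to 1.51%. In pIpC libraries the leading genes were Car1 (903 ± 226) and Car2 (837 ± 189), which made up 90.4% to 93.3% together. Their order was not constant, since Car2 was 1.14 times Car1 in pIpC replicate 1 and 0.831 and 0.842 times in replicates 2 and 3. Car9 (105 ± 11.2) came next at 4.33% to 6.37%, then Car13 (30.7 ± 2.96), Car3 (11.7 ± 0.579) and Car12 (6.22 ± 1.16). Between the surface enzymes, Car9 was 5.08 to 13.7 times Car12 per kilobase in PBS libraries and 13.3 to 20.0 times in pIpC libraries, ranges that overlapped. Car12 was 0.534 to 0.794 of Car13 in PBS libraries and 0.159 to 0.264 in pIpC libraries, which did not overlap.

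**Figure D4:**
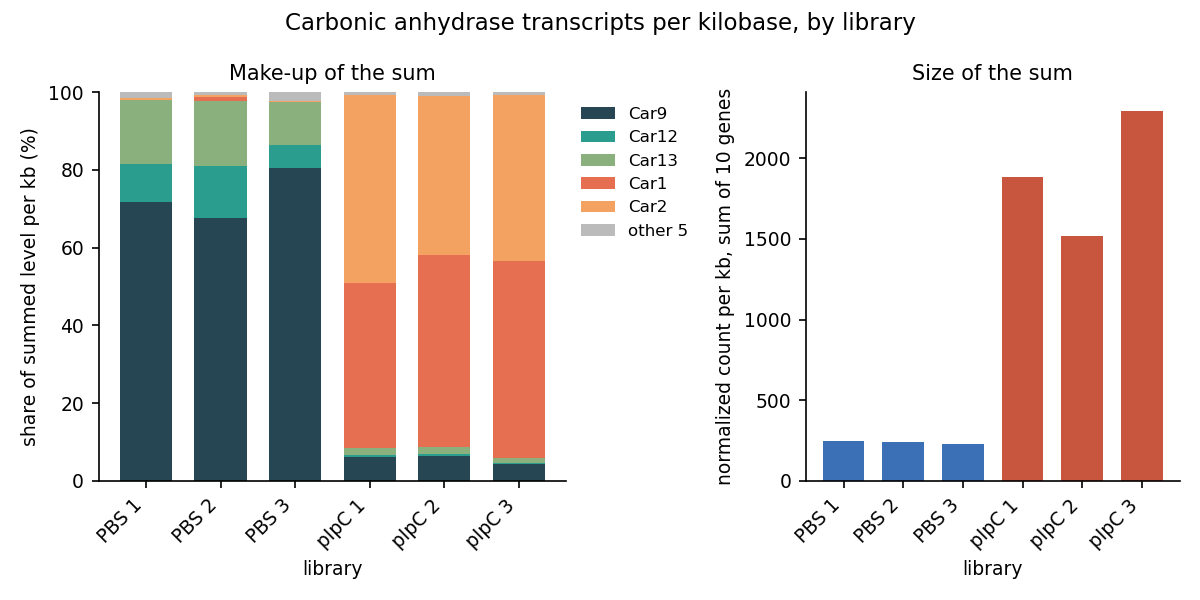
Left, share of the summed normalized count per kilobase of the 10 members taken by each gene, as stacked bars from 0 to 100% for each library, and right, the size of that sum as bars from 0. Car9 takes 67.6% to 80.5% of the bar in PBS libraries, Car1 with Car2 take 90.4% to 93.3% in pIpC libraries, and the sum is higher in every pIpC library.

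Genes of the proteins that carry bicarbonate and protons beside these enzymes were called in both directions, as were all tested genes. Of 22 bicarbonate transporters, 11 were tested, 3 rose and 3 fell, with a median log2 difference of 0.21 beside 0.01 for all tested genes. The background for this list and those below is 25.0% of all tested genes called higher and 20.4% called lower. The counts for the bicarbonate transporters are near that background, so nothing is read from them. Slc4a1, the band 3 exchanger of red cells, had 0 reads in each PBS library and normalized counts of 267, 283 and 273 in pIpC libraries, at least 91.2-fold higher (3 reads taken per PBS library, limma adjusted p = 1.68e-05). Slc4a8 and Slc4a5, which bring bicarbonate in with sodium, fell, with log2 differences of -3.59 (SE 0.27, limma adjusted p = 0.000124) and -4.37 (SE 0.48, limma adjusted p = 0.000562). Slc4a8 had normalized counts of 1600, 1395 and 2803 in PBS libraries and of 162, 159 and 135 in pIpC libraries, with no overlap between the groups. Slc26a8, an anion transporter, fell by 0.87 on the log2 scale (SE 0.21, limma adjusted p = 0.018). Without PBS replicate 3, the number that passed was 10 of 11.

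Of 24 proton export genes, 17 were tested, 7 rose and 4 fell (median 0.22). Hvcn1, the voltage-gated proton channel of phagocytes, rose from 1030 ± 59.0 to 2988 ± 73.9 (SD, n = 3; log2 difference 1.54, SE 0.11, limma adjusted p = 9.88e-05). The acid-sensing receptor Gpr65 and the exchanger cofactor Chp1 rose by 1.31 and 1.29 on the log2 scale (limma adjusted p = 0.00265 and 0.000292). Emb, an ancillary protein of lactate transporters, and the exchangers Slc9a9 and Slc9a5 fell, with log2 differences of -1.30, -0.94 and -0.77 (limma adjusted p = 0.00104, 0.00595 and 0.0318), and Slc9a5 no longer passed without pIpC replicate 1. Of 25 vacuolar proton pump genes, 19 were tested, 5 rose and 3 fell (median 0.20), near the background shares given above. The number that passed was 13 without PBS replicate 3 and 4, 4 and 3 without pIpC replicates 1, 2 and 3. Atp6v0a1 and Atp6v1g2 rose by 1.54 and 1.34 (limma adjusted p = 0.00122 and 0.00229) and Atp6v1c1 fell by 0.55 (limma adjusted p = 0.00977). The calls on Atp6v0c (0.65), Atp6v0d1 (-0.84) and Atp6v1h (-0.66), with limma adjusted p = 0.0499, 0.0476 and 0.0277, each depended on single libraries: Atp6v0c was lost without any library but PBS replicate 3, Atp6v0d1 without any pIpC library, and Atp6v1h without pIpC replicate 2 or 3.

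Genes of the red cell membrane, where Car2 and Slc4a1 work side by side, were higher as a group. Of 18 genes of the band 3 complex and gas channels, 16 were tested, 14 rose and none fell, with a median log2 difference of 6.18, or 5.56 with the 6 genes at 0 in PBS libraries set to their bound. Of the 18, 5 are also in the erythroid or bicarbonate lists, and the erythroid sums given above moved with them. Kel, a blood group protein, had 0 reads in PBS libraries and normalized counts of 320, 275 and 437 in pIpC libraries, at least 114-fold higher (limma adjusted p = 1.68e-05). Add2, a membrane skeleton protein, also had 0 reads in PBS libraries and then 311, 209 and 377, at least 99.5-fold higher (limma adjusted p = 1.84e-05). Aqp1, a water channel that also passes carbon dioxide, was named after its values were seen. Its mean was 3.66 ± 3.48 in PBS libraries and 949 ± 249 in pIpC libraries (SD, n = 3; log2 difference 8.08, SE 0.75, limma adjusted p = 0.00028). Among the 3 pIpC libraries, replicate 2 was the lowest in 11 of the 16 tested genes, Kel, Add2 and Aqp1 among them, and the highest in Slc4a1.

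Among hypoxia-responsive genes, which are known to respond to the same factor as Car9, more were called higher than lower. Of 35 such genes, 33 were tested, 11 rose and 3 fell, with a median log2 difference of 0.18. Over all tested genes, 25.0% were called higher and 20.4% lower. Ak4, a mitochondrial adenylate kinase, had normalized counts of 12.1, 14.2 and 4.53 in PBS libraries and of 451, 429 and 321 in pIpC libraries (log2 difference 5.27, SE 0.42, limma adjusted p = 0.000153). Pfkfb4 and Hk1, which act on glycolysis, rose by 2.66 and 1.37 (limma adjusted p = 8.18e-05 and 0.000546). Aldoc, Bnip3 and Vegfa fell, with log2 differences of -0.81, -0.56 and -0.51 (limma adjusted p = 0.0419, 0.0434 and 0.032). With the replicate number as a block, Aldoc no longer passed (limma adjusted p = 0.113). Each of these falls was lost without single libraries: Aldoc without PBS replicate 1 or pIpC replicate 1 or 2, Bnip3 without PBS replicate 2 or pIpC replicate 1 or 2, and Vegfa without pIpC replicate 1 or 3. The number that passed was 24 without PBS replicate 3, and 8, 8 and 9 without pIpC replicates 1, 2 and 3.

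A list of 14 genes held enzymes that use bicarbonate in or beside mitochondria, with others of the urea cycle and glutamine synthesis. Of these 14, 11 were tested, 2 rose and 3 fell (median -0.32). The 2 that rose are not enzymes that take bicarbonate. Ass1, of the urea cycle, rose from 189 ± 16.8 to 1345 ± 242 (SD, n = 3; log2 difference 2.82, limma adjusted p = 5.55e-05) and Glul, which makes glutamine, rose by 0.60 (limma adjusted p = 0.0147). Of the genes that encode carboxylases or their subunits, Pcx, Pccb and Mccc2 fell, with log2 differences of -1.57, -1.09 and -0.75 (limma adjusted p = 0.000646, 0.000872 and 0.0134). Pccb and Mccc2 encode the subunits without the site that takes bicarbonate, which lies on their partners Pcca and Mccc1. Pcca, Mccc1, Acaca and Acacb, named here after their values were seen, did not pass (limma adjusted p = 0.731, 0.871, 0.428 and 0.330).

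**Figure D5:**
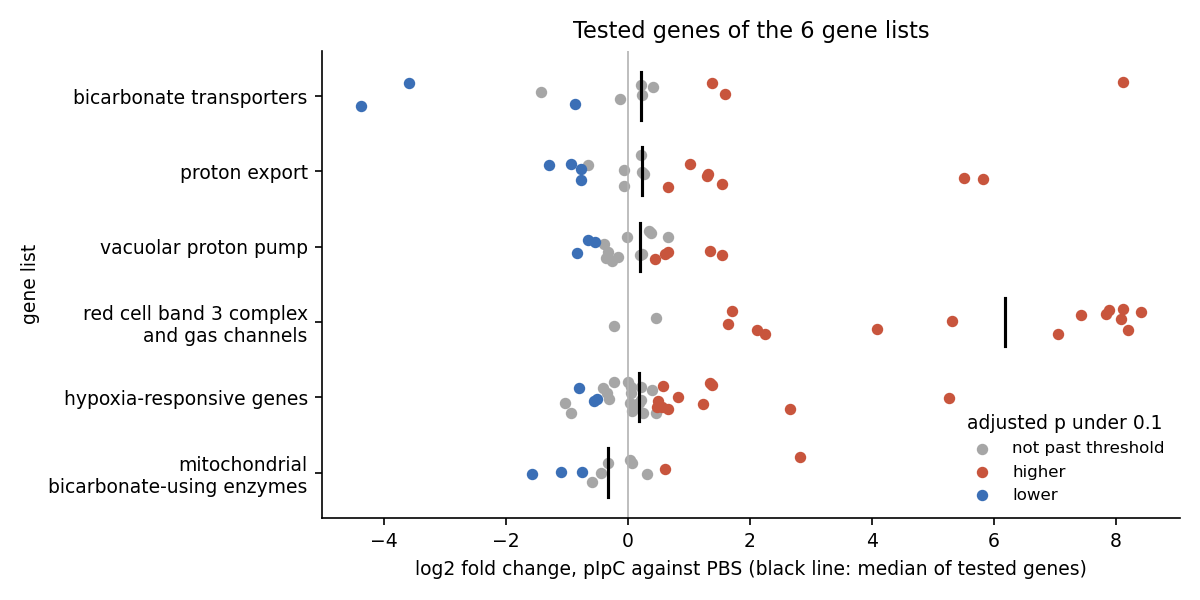
Log2 difference (libraries labelled pIpC minus PBS, on log2(normalized count + 1)) of every tested gene in the 6 lists, 1 point per gene, coloured by direction where the limma adjusted p is under 0.1 and grey otherwise, with a black line at each list's median. The median is 6.18 for the red cell list and between -0.32 and 0.22 for the others.

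Markers of the other cell types that marrow can hold are given beside these results. Of the markers of osteoclasts, which rely on Car2, 3 of 8 tested rose and 1 fell, with a median log2 difference of -0.04. Their summed normalized count was 6824 to 7253 in PBS libraries and 25428 to 30308 in pIpC libraries, mostly Mmp9, which is also a neutrophil marker, and Calcr was at 0 in the pIpC libraries. Other lists gave 5 of 7 mast cell and basophil markers higher and 1 lower (sums 4435 to 6789 and 10960 to 13092). Of these, Fcer1a, Cma1, Tpsb2 and Mcpt4 were at 0 in the PBS libraries, and Tpsb2 and Mcpt4 also in the pIpC libraries. Eosinophil markers were higher for 3 of 7 and lower for 2 (10044 to 20618 and 4234 to 4616, with Ear6 at 0 in PBS libraries). T and NK cell markers were higher for 6 of 7 and lower for 1 (738 to 758 and 3951 to 4581). Macrophage markers were higher for 10 of 12 and lower for 2, with sums of 10505 to 14811 and 7776 to 10443. Endothelial and stromal markers were higher for 7 of 11 and lower for 2 (1874 to 2928 and 2109 to 2438, with Adipoq at 0 in PBS libraries). Megakaryocyte sums were 401 to 562 and 1728 to 2587, with Gp1bb, Ppbp, Gp6 and Treml1 at 0 in PBS libraries, and B cell sums were 146 to 309 and 1687 to 3088, with Ms4a1 at 0 there. The part of these cell types in the members' levels was not tested.

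The genes whose pattern over the 6 libraries was most like a member's were found by Pearson r on the log2(normalized count + 1) scale, as a description in which the difference between the groups dominates. For Car1 these were Gfi1b, a repressor of the red cell and platelet lineages (r = 0.9998), Slc25a21 (0.9997) and Col16a1 (0.9996). In PBS libraries, Car1 and each of these genes had reads in replicate 2 only, 3 for Car1 and 2, 1 and 1 for the others. Their rank thus rests in part on a few reads. For Car2 the most alike genes were Myo1d (0.9995), Rab38 (0.9994) and H2-Q10 (0.9992). For Car9 they were Nudt13 (0.9995), Gtdc1 (0.9976) and Zscan12 (0.9968), and for Car12 Trav13n-4 (0.9979), Fam43a (0.9962) and Dsp (0.9942). Likeness of 0.99 or more was found in 279 genes for Car1 (1.86% of those tested), 520 for Car2 (3.46%), 30 for Car9 (0.200%) and 14 for Car12 (0.0932%). These members also differ in the size of their group difference, so nothing is read from these counts. Car1 and Car2 had r = 0.993 with each other and Car9 and Car12 had r = 0.844, over the same 6 libraries.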

How the data were processed

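The authors deposited 1 table of normalized counts, a signal of gene counts divided by 1 size factor per library, for 55487 genes, of which 55141 were given a symbol. Which steps made it is not clear: the study's methods describe nf-core/rnaseq with STAR and RSEM on mm10 and DESeq2, with stranded libraries and recipients that were sublethally irradiated, whereas the submitters' processing notes name HISAT2 (2.2.1), SAMtools, featureCounts, Subread and edgeR on GRCm38 and the labels describe unstranded poly(A) libraries and a lethal dose given as 2 times 450 cGy. Every deposited value other than 0 came to a whole number of reads (within 0.01 read), so reads were recovered, 19277439 to 22378154 in PBS and 22348517 to 23586722 in pIpC libraries. All columns of per-sample values were used.

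Genes with a mean of at least 10 (15020) were tested with limma (3.58.1, R 4.3.3) on log2(normalized count + 1), the prior variance following the mean level, with Benjamini-Hochberg adjusted p under 0.1 over all of them and no replicate block. Log2 differences are pIpC minus PBS. Read ratios compare summed reads scaled by the size factors of the libraries, and their intervals are exact 95% counting intervals on the same scale. Lengths are the union of a gene's exons in GENCODE M21 (GRCm38), and promoter windows come from RefSeq. Alternatives were pseudocounts of 0.1 and 10, quantile normalization, median centring, a mean of at least 50 or no filter at all, leaving out each library, a replicate block, no trend, an adjusted p under 0.05, and edgeR (4.0.16) and DESeq2 (1.42.0) on recovered reads. The scripts were tested on simulated data.

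The members and gene lists were chosen with earlier results of these data known. Beside the members, Brd9 and the chromosome 3 neighbours, the text names in each pathway list up to 3 rises and 3 falls of largest size whose groups do not overlap and whose mean is at least 50, the 3 genes most like each member with a mean of at least 100, and marker genes at 0 in a group. Same-numbered libraries deviated from their group means with correlations of -0.117, 0.143 and 0.0405, so the numbers were not taken to pair them. Protein sequences and values per exon were not analysed here.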

Additional observations from a re-analysis of the deposited data

How the results depend on the processing

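Over all genes, 3750 were called higher and 3058 lower, but quantile normalization gave 3244 higher and 4078 lower. The count of 6808 ran from 4650 to 9783 with single libraries left out. The replicate block gave 6095 calls (3395 higher, 2700 lower). It left the list counts within 1.5 times of those reported, and Aldoc no longer passed (limma adjusted p = 0.113 with the block). Brd9 had a log2 difference of 0.12 to 0.24 without single libraries and limma adjusted p = 0.375 with the block.

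Without single libraries, the numbers called were 5 to 10 of the bicarbonate transporters, 10 to 14 of the proton export genes, 3 to 13 of the vacuolar proton pump genes, 13 to 15 of the red cell list, 8 to 24 of the hypoxia-responsive genes, 5 to 6 of the mitochondrial enzymes and 5 to 6 of the neighbours. A mean of at least 50 left 2 neighbours called. Lrrcc1 ran from -0.17 to 0.030. The members' log2 differences ran from 9.11 to 10.1 for Car1, 9.03 to 9.51 for Car2, 2.67 to 3.90 for Car3, -0.84 to -0.70 for Car9 and -0.41 to -0.06 for Car13. With a pseudocount of 0.1 or 10, Car2 gave 9.83 or 7.35 and Car3 4.72 or 1.77, and quantile normalization gave 8.43 for Car2. Of the members, Car1, Car2, Car3, Car9, Car12 and Car13 kept their direction under the alternatives listed, and the other 4, below the filter, were not followed under them. The cause of these changes was not tested. Depth limits Car4, Car5b, Car6 and Car7, with at most 18 reads in a library.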
